A study of Mus musculus with 23 samples.

Results

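The 10 genes described here are those usually read together when epithelial and mesenchymal states are compared: the cadherins Cdh1, Cdh2 and Cdh3, the epithelial adhesion molecule Epcam, the intermediate filament Vim, and the transcription factors Zeb1, Zeb2, Snai1, Snai2 and Twist1. They were taken by name from the count table, 10 of 53607 gene rows, and all 10 were among the 20372 genes with enough counts to test. RNA was sequenced from 23 libraries of mouse embryonic stem cells in 8 groups. All lines are Raslox/lox cells, labelled H-Ras-/- and N-Ras-/-, with a conditional allele of the remaining RAS gene and the tamoxifen-inducible recombinase Ubiq-CreERT2, so the controls carry the first 2 deletions as well. The reference line is ERF wild type with RAS present. The RAS-deleted line is the same line after 6 days of 4-hydroxytamoxifen. The ERF-knockout line has RAS present, and the double-mutant line is that line after the same 6 days of the drug. In every RAS comparison, and in the double mutant against the reference line, the drug and the deletion cannot be told apart. Each line was grown in 2iL, in which a MEK inhibitor, a GSK3 inhibitor and the cytokine LIF hold the naive state, or for 48 hours in FA, which contains 12 ng/ml FGF2, 20 ng/ml Activin A and knockout serum replacement on fibronectin and turns the cells into epiblast-like stem cells. Every group holds 3 libraries except the reference line in FA, which holds 2. The labels do not say whether replicates were separate cultures or whether a line is 1 clone, so p-values measure the spread between these libraries.

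Cadherins join neighbouring cells. E-cadherin (Cdh1) is the adhesion molecule of epithelia and of naive embryonic stem cells, N-cadherin (Cdh2) is typical of mesenchymal and neural cells, and P-cadherin (Cdh3) is a further classical cadherin of epithelia. ZEB, SNAI and TWIST proteins are known to repress Cdh1 and other epithelial genes, partly through E-box motifs, and a fall of Cdh1 with a rise of Cdh2 is called the cadherin switch. In the embryo the switch is known from gastrulation, after the epiblast stage that FA cultures are taken to model. RAS carries growth factor signals to the kinase ERK, and ERF is an ETS-family repressor that ERK inactivates.

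Total counts ran from 16.2 to 29.9 M per library. Replicates differed beyond sampling noise in every pair, with a chi-square per degree of freedom of at least 3.04. The naive markers summed to 2663 to 3282 CPM (read counts scaled to library depth) in 2iL and the epiblast-like markers to 616 to 1493 CPM in FA, against 43.5 to 72.6 CPM in 2iL. Fibroblast or feeder markers summed to at most 8.48 CPM in any library, and Lum and Postn were at 0 in every FA library. Erf itself ran from 96.1 to 171.6 CPM in the 2iL libraries of the 2 lines without ERF and from 70.5 to 90.2 CPM in those with it, so its gene count does not check that label. Hras and Nras had 188 to 743 and 95 to 1121 counts per library, although every line is labelled as lacking both.

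4 libraries stood apart in a way that touches the cadherins. In the ERF wild-type libraries numbered 1, in both media and both RAS states, the genes of chromosome 8 were raised. A chromosome's level is the median log2 difference of its genes from the median library of the same medium, less that of all other genes. Over 582 genes of chromosome 8 it was 0.22 to 0.34, against -0.06 to 0 in the other 19 libraries. No other autosome lay outside -0.05 to 0.10 in any library. Cdh1 (chr8:106603351-106670246, plus strand, GRCm38) and Cdh3 (chr8:106510891-106557297, plus strand) are protein-coding genes on that chromosome, and Cdh1 was 1.29 to 1.71 times higher in these 4 libraries than in the others of their groups. Cdh3 stood at 1.86 and 1.44 times the others in the 2 groups in 2iL, but at 1.03 and 0.84 times in the 2 groups in FA. Genes on other chromosomes differed in them too. Cdh2 stood at 0.37 to 0.49 times the others in 3 of the 4 groups, and Twist1 at 2.06 and 1.74 times in the 2 groups in 2iL. Values are given with these 4 libraries unless stated otherwise, and each call of the 10 genes that changed without them is given beside its gene. Leaving them out leaves the reference line in FA with 1 library that is assumed to vary like the rest. Counts over the gene lists are with all libraries.

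**Figure D1:**
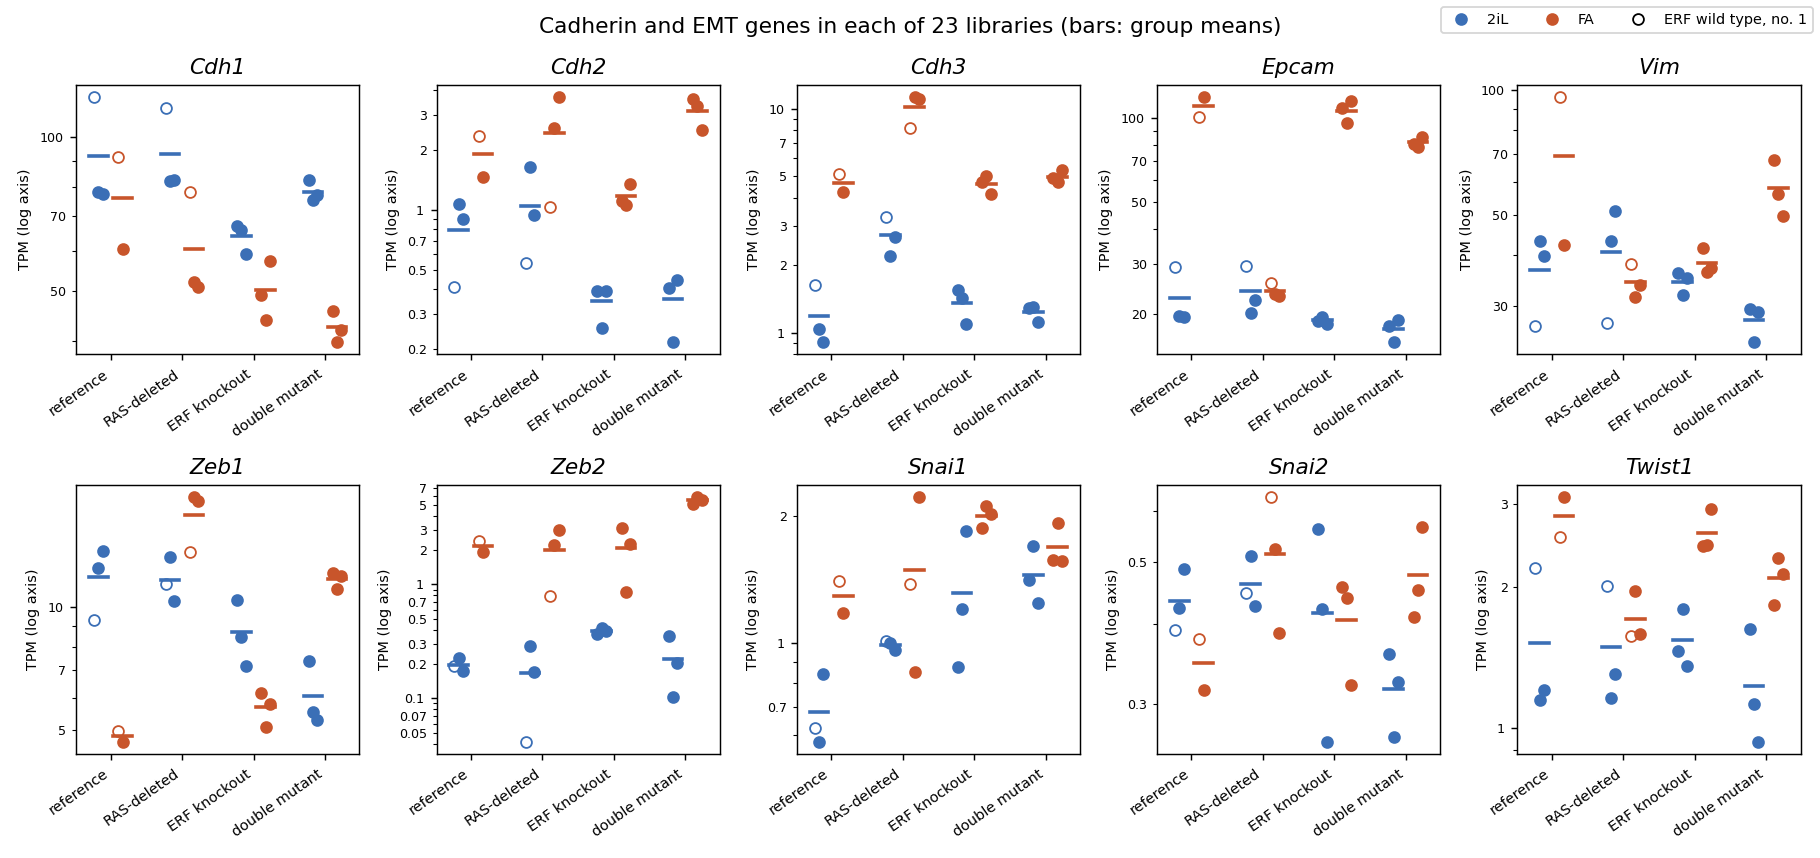
TPM of each gene (log axis, a level per transcript length) in all 23 libraries, by line and medium; horizontal bars are group means and open points are the ERF wild-type libraries numbered 1. Epcam in FA sits between 78.7 and 118.4 in 3 lines and between 23.2 and 25.7 in the RAS-deleted line, and the open points are the highest Cdh1 values of their groups.

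A call below means a Benjamini-Hochberg adjusted p under 0.05 over all 20372 genes in edgeR's quasi-likelihood test together with a change of at least 2-fold. Fold changes are differences on the log2 scale with their standard errors. Adjusted p-values in the text are from that test.

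Epcam set the RAS-deleted and double-mutant lines apart from the other lines in FA. Its promoter is shown because it holds the E-box letters that ZEB, SNAI and TWIST factors are known to bind. The 250 bases before its RefSeq start (chr17:87635729-87635978, plus strand, GRCm38.p6) are upstream of a protein-coding gene at chr17:87635979-87651129. Capitals mark CACCTG and CAGGTG, which are the same E-box read on either strand.

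Epcam: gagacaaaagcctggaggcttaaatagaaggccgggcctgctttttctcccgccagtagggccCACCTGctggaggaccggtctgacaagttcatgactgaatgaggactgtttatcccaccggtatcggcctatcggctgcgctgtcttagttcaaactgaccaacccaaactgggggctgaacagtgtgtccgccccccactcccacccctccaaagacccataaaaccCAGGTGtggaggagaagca

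The boxes begin 187 and 19 bases before the start. Of 32851 windows of the same 250-base length in the RefSeq table, 17.2% held at least 1 such box, so the match is common. The Snai1 window held a single box, 126 bases before its start. The Vim window held none, but it had the ETS core TTCCGG 106 bases before its RefSeq start, a motif that with its reverse CCGGAA occurred in 12% of windows. Neither motif was found in the Twist1 window or in any of the 4 Zeb2 windows. The Vim window (chr2:13574061-13574310, plus strand) and 3 of the 4 Zeb2 windows lie inside the genes as GENCODE M21 annotates them, downstream of the GENCODE start (for Vim, chr2:13573927-13582826). The search left out chromosome 18, where Cdh2 and Zeb1 lie, and it found windows for these 5 of the 10 genes.

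Moving the cells from 2iL to FA changed more of these genes than either mutation did. Over the 4 lines, 17 of 40 medium tests were called, where 21.3% of all tests were. The reference line had 5 calls among the 10 against a background of 24% of all genes: Cdh2, Cdh3, Epcam and Zeb2 rose and Zeb1 fell. In the RAS-deleted line 3 were called (background 16.5%), namely Cdh2, Cdh3 and Zeb2, all higher. In the ERF-knockout line 4 were called (19.7%), with Cdh2, Cdh3, Epcam and Zeb2 higher. In the double-mutant line 5 were called (24.9%): Cdh2, Cdh3, Epcam and Zeb2 rose and Cdh1 fell. Cdh2, Cdh3 and Zeb2 were thus called higher in FA in each of the 4 lines.

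The RAS deletion was compared within each ERF genotype and medium, and 6 of 40 tests were called against 6.39% of all tests. In 2iL only Cdh3 was called with ERF wild type, 1 of 10 where 1.20% of all genes were. In 2iL without ERF edgeR called none, against 0.211% of all genes. There 1 gene, Zeb1, had an unadjusted p under 0.05, DESeq2 also called 0, and Zeb2 was called with no filter on low counts (-1.31, adjusted p = 0.0371). In FA with ERF wild type Epcam and Vim fell and Zeb1 rose, 3 of 10 against 17.3%. In FA with ERF knocked out Cdh2 and Zeb2 rose, 2 of 10 against 6.88%.

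The ERF knockout was called in 4 of 40 tests, a share near the 10.4% of all tests, and in 6 of 40 without the 4 chromosome 8 libraries. In 2iL it was called for Snai1 with RAS present (1 of 10, background 9.72%) and for Cdh2 with RAS deleted (1 of 10, background 13%). In FA with RAS present edgeR called none of the 10, where 2.36% of all genes were called. There 2 genes, Vim and Snai1, had an unadjusted p under 0.05, DESeq2 called 0, and Vim was called without reference library 2 in FA (-1.08, adjusted p = 0.000126). In FA with RAS deleted Epcam and Zeb2 rose, 2 of 10 against 16.6%. The double mutant against the reference line in FA changes both factors at once: Zeb1 and Zeb2 were higher, 2 of 10 against 3.32%. Comparisons within a medium share groups with each other, so their values are set side by side and not counted as separate evidence.

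Whether an effect depended on a second factor was tested directly, and 12 of 60 such tests were called against 7.70% of all. The FA response depended on RAS for 3 genes with ERF wild type (background 11.9%) and 2 genes with ERF knocked out (4.59%). It depended on ERF for 3 genes with RAS deleted (11.3%). With RAS present edgeR called none (4.27%), while 2 genes, Vim and Zeb1, had an unadjusted p under 0.05 and DESeq2 called 0. Other edgeR fits did call members there. Zeb2, at -1.39 with all libraries (adjusted p = 0.289), was called with no filter on low counts (-1.38, adjusted p = 0.0132) and in the compared groups alone with the replicate block (-1.52, adjusted p = 0.0401), against an adjusted p of 0.0595 there without the block. Vim, at -0.81 (adjusted p = 0.054), was called without reference library 2 in FA (-1.20, adjusted p = 0.000303) and was -0.16 without the 4 chromosome 8 libraries. The RAS effect depended on ERF for 4 genes in FA (13.7%). In 2iL edgeR called none (0.378%), 1 gene, Cdh3, had an unadjusted p under 0.05, and DESeq2 called 1.

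**Figure D2:**
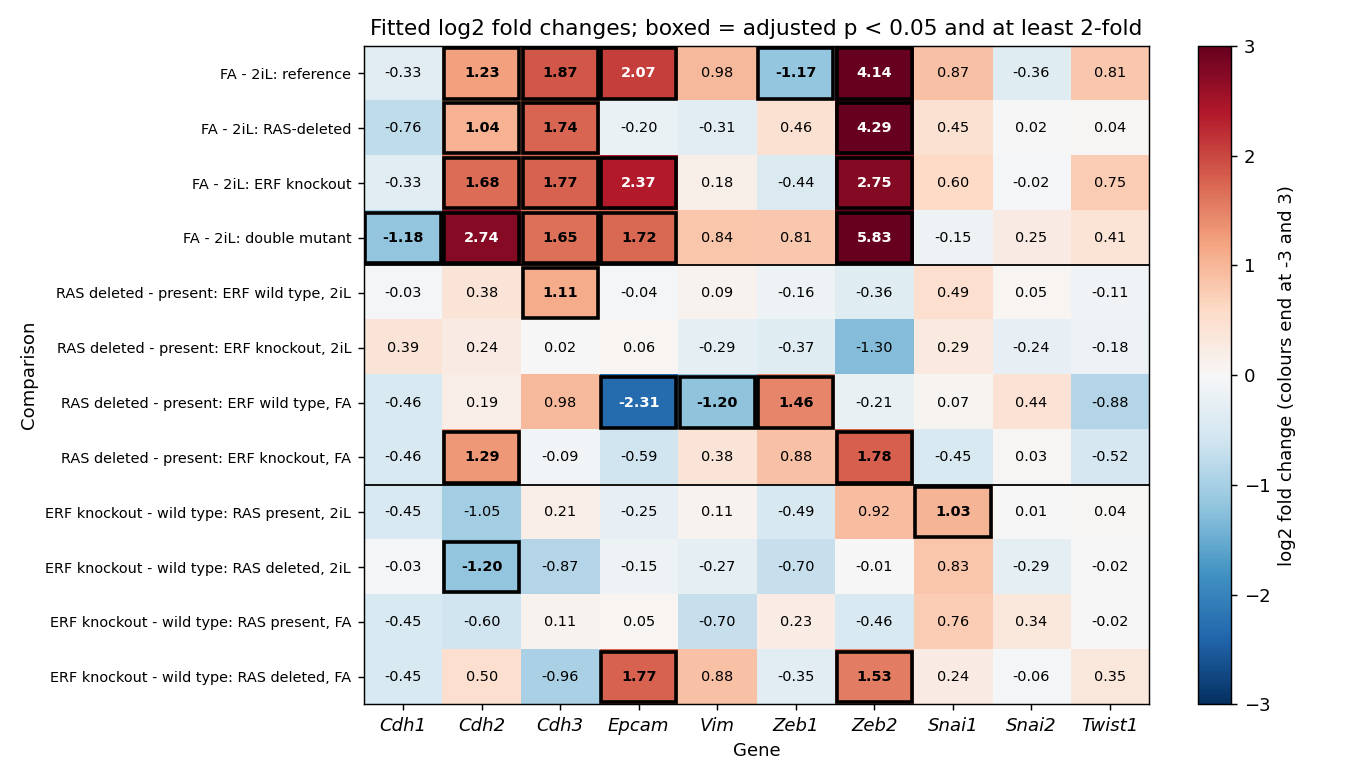
Fitted log2 fold changes of the 10 genes (columns) in the 12 comparisons that change 1 factor (rows); colour and number give the log2 fold change, and boxes mark an adjusted p under 0.05 with at least 2-fold. The Cdh2, Cdh3 and Zeb2 columns are boxed in all 4 medium rows, and the ERF row with RAS present in FA has no box.

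Cdh1, the E-cadherin gene, stayed among the 3 most abundant of the 10 in every library, from 39.8 to 119.7 TPM. In the reference line it had 119.7, 78.2 and 77.5 TPM in 2iL and 91.6 and 60.3 TPM in FA, and the groups overlapped. The RAS-deleted line had 113.8, 82.2 and 82.6 TPM in 2iL and 78.0, 52.1 and 51.0 TPM in FA, where no FA library reached the lowest 2iL library. The ERF-knockout line had 67.1, 66.0 and 59.2 TPM in 2iL and 49.2, 44.0 and 57.3 TPM in FA. The double-mutant line had 82.4, 75.2 and 77.0 TPM in 2iL and 45.8, 39.8 and 41.9 TPM in FA, the lowest group mean, with 1 of its libraries inside the range of the ERF-knockout line in FA.

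With all libraries, the FA difference of Cdh1 was called in the double mutant, a fall of 2.26-fold (log2 -1.18 ± 0.22, adjusted p = 0.000196). Scaling by library totals alone brought it to -0.99, just under the 2-fold minimum. The same difference was -0.76 ± 0.22 (adjusted p = 0.00904) in the RAS-deleted line, under the 2-fold minimum. Without the library numbered 1 of that line in FA it was -1.06 (adjusted p = 0.000517) and was called. It was -0.33 with adjusted p = 0.274 in the reference line and 0.228 in the ERF-knockout line. In the ERF-knockout line, where no FA library reached the lowest 2iL library, it was -0.34 without the 4 libraries of raised chromosome 8. Whether the medium effect on Cdh1 differs with RAS was tested directly: the difference was -0.43 ± 0.32 with ERF wild type and -0.85 ± 0.31 with ERF knocked out (adjusted p = 0.382 and 0.0783). Without the 4 libraries of raised chromosome 8, these 2 differences were -0.62 ± 0.11 and -0.85 ± 0.08, with adjusted p = 0.000226 and 1.77e-07, both under the 2-fold minimum. Without them the medium difference was -0.24 in the reference line (adjusted p = 0.0305) and -0.85 in the RAS-deleted line (adjusted p = 1.21e-09), still under the 2-fold minimum. The ERF knockout gave -0.45 for Cdh1 in 2iL and in FA with RAS present, and -0.13 and -0.23 without those libraries. In FA the double mutant stood at -0.91 ± 0.24 against the reference line (adjusted p = 0.0219) and at -0.69 without them.

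Cdh2, the N-cadherin gene, was low throughout, from 0.22 to 3.67 TPM and 22 to 431 counts. In 2iL the reference line had 0.41, 1.07 and 0.90 TPM and the RAS-deleted line 0.54, 1.64 and 0.94 TPM. The ERF-knockout line had 0.39, 0.25 and 0.39 TPM and the double mutant 0.41, 0.22 and 0.44 TPM. Both ERF-knockout groups lay at or near the library numbered 1 of the ERF wild-type groups and below their other libraries. In FA the reference line had 2.35 and 1.45 TPM, the RAS-deleted line 1.03, 2.58 and 3.67 TPM, the ERF-knockout line 1.10, 1.06 and 1.35 TPM, and the double mutant 3.60, 3.30 and 2.51 TPM. The RAS-deleted line spread most widely, and its low library is the one numbered 1.

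The medium change of Cdh2 was largest in the double mutant, at 6.66-fold (log2 2.74 ± 0.41, adjusted p = 1.57e-05), and 3.21-fold in the ERF-knockout line (1.68 ± 0.42, adjusted p = 0.00303). In the reference line it was 1.23 ± 0.41 (adjusted p = 0.0198), and this call was lost without the library numbered 1 in 2iL (0.91), without that in FA (0.93) and without the 4 chromosome 8 libraries (0.62, adjusted p = 0.116). In the RAS-deleted line it was 1.04 ± 0.37 (adjusted p = 0.0309). There the call was lost in a fit of the compared groups alone and without any of 4 of the 6 libraries (lowest value 0.64). The medium effect was larger with ERF knocked out than with ERF wild type where RAS was deleted (difference 1.70 ± 0.56, adjusted p = 0.0301). That call was lost in 6 alternatives, among them the fit of the compared groups alone (1.68, adjusted p = 0.0755), also with the replicate block added (1.73, adjusted p = 0.0767).

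In FA without ERF the RAS deletion raised Cdh2 2.45-fold (1.29 ± 0.36, adjusted p = 0.0127), and all 3 double-mutant libraries lay above the 3 ERF-knockout libraries. Leaving out ERF-knockout library 2 in FA gave 1.26 with an adjusted p of 0.0514. The RAS difference in FA with wild-type ERF was 0.19 ± 0.40 (adjusted p = 0.736), and 0.82 without the 4 chromosome 8 libraries (adjusted p = 0.0322, under 2-fold). With ERF knocked out the medium effect on Cdh2 differed by RAS state by 1.05 (adjusted p = 0.269). That difference was called in a fit of the compared groups alone (1.06, adjusted p = 0.0173), in that fit with the replicate block (1.07, adjusted p = 0.0147) and without the chromosome 8 libraries (1.05, adjusted p = 0.0342). In 2iL the ERF knockout lowered Cdh2 2.29-fold where RAS was deleted (-1.20 ± 0.43, adjusted p = 0.0359), a call lost without either of 2 libraries on each side. With RAS present the value was -1.05 ± 0.44 (adjusted p = 0.0858). It was called by DESeq2 (-1.08, adjusted p = 0.0235), in a fit of the compared groups alone (-1.06, adjusted p = 0.0423), with no filter on low counts (-1.06, adjusted p = 2.74e-05) and without reference library 1 in 2iL (-1.36, adjusted p = 0.0309). Without the 4 chromosome 8 libraries the 2 values were -1.45 (adjusted p = 0.00017) and -1.36 (adjusted p = 0.000708).

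The ratio of Cdh1 to Cdh2 per length describes the balance in each library. Cdh1 exceeded Cdh2 in all 23 libraries, by 12.1 to 348 times. In 2iL the geometric mean ratio was 122.9 in the reference line, 97.7 in the RAS-deleted line, 188.6 in the ERF-knockout line and 231 in the double mutant. In FA it was 40.2, 27.7, 42.9 and 13.7 in the same order. Every line had a lower ratio in FA, and the groups overlapped between media only in the RAS-deleted line, where the FA library numbered 1 had 75.7 and the lowest 2iL library 50.2. The 3 double-mutant FA libraries, at 12.1 to 16.7, shared the low end with RAS-deleted FA library 3, at 13.9. No library reached an excess of Cdh2 over Cdh1.

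**Figure D3:**
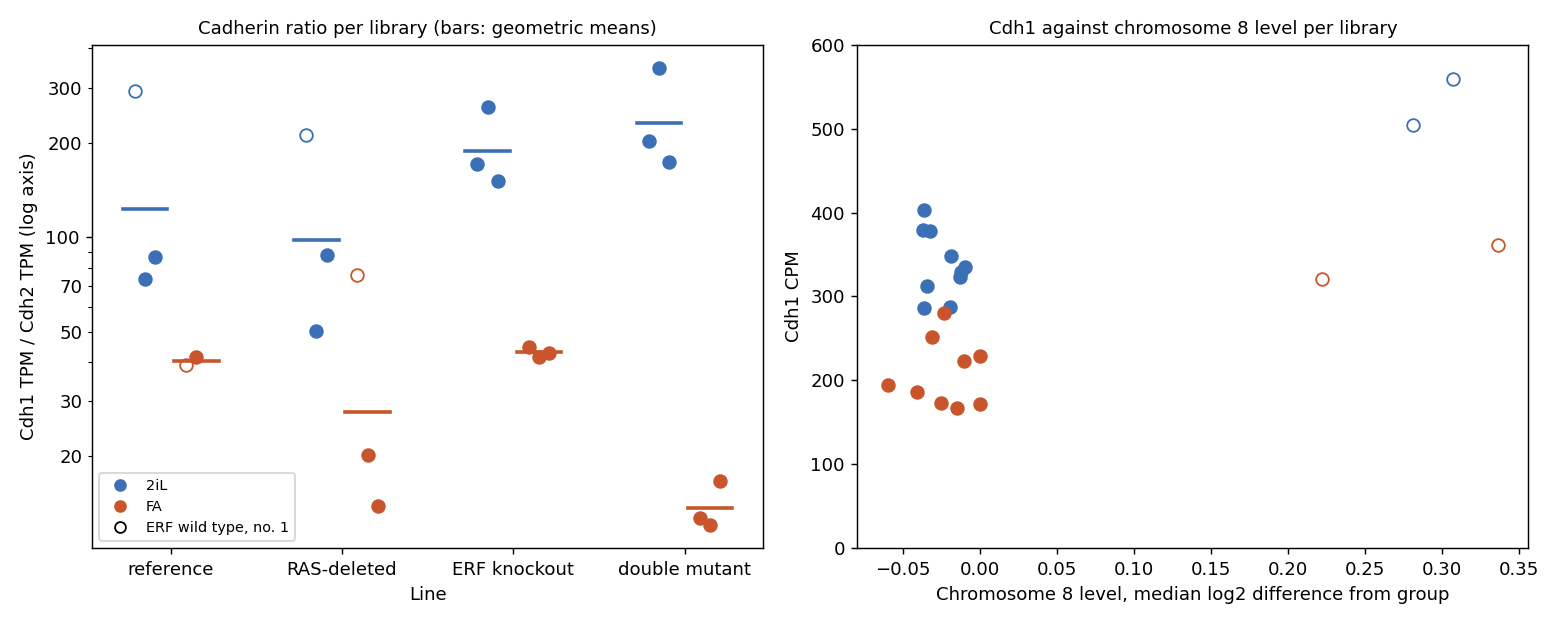
Left, the ratio of Cdh1 to Cdh2 TPM (log axis) in each library by line, with geometric means as bars. Right, Cdh1 CPM against the chromosome 8 level of the library, over 582 genes. That level is a median log2 difference from the libraries of the same medium, less that of all other genes, where the axis label says group. All ratios are above 12, and the 4 open points, the ERF wild-type libraries numbered 1, stand at chromosome 8 levels of 0.22 to 0.34 while the other 19 lie at or below 0.

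Cdh3, the P-cadherin gene, rose in FA by a similar factor in each line. The reference line had 1.63, 1.03 and 0.91 TPM in 2iL and 5.10 and 4.24 TPM in FA. The RAS-deleted line had 3.27, 2.19 and 2.68 TPM in 2iL and 8.18, 11.3 and 11.1 TPM in FA, above all other groups in its medium. The ERF-knockout line had 1.55, 1.42 and 1.09 TPM in 2iL and 4.69, 5.02 and 4.14 TPM in FA, and the double mutant 1.29, 1.30 and 1.11 TPM in 2iL and 4.90, 4.68 and 5.32 TPM in FA. No FA library overlapped the 2iL libraries of its line.

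The medium differences of Cdh3 were 1.87 ± 0.22, 1.74 ± 0.19, 1.77 ± 0.20 and 1.65 ± 0.20 in the reference, RAS-deleted, ERF-knockout and double-mutant lines, with adjusted p of 6.56e-07 or less. They were 2.24 and 2.01 in the first 2 without the chromosome 8 libraries. The RAS deletion raised Cdh3 2.15-fold in 2iL with ERF wild type (1.11 ± 0.21, adjusted p = 0.00414), and by 0.98 ± 0.21 in FA (adjusted p = 0.000648), just under 2-fold. The first call was lost in a fit of the compared groups alone (adjusted p = 0.0573), without RAS-deleted library 1 and without reference library 3 (0.91 in each). Without the chromosome 8 libraries both passed, at 1.32 and 1.09. In the ERF-knockout background the RAS difference was 0.02 ± 0.22 in 2iL and -0.09 ± 0.18 in FA. With RAS deleted in FA the ERF knockout gave -0.96 for Cdh3 (adjusted p = 0.000191), under 2-fold, and -1.04 without the chromosome 8 libraries (adjusted p = 1.98e-07), past 2-fold. The RAS effect differed between ERF genotypes in FA (-1.07 ± 0.27, adjusted p = 0.00548), a call lost without ERF-knockout library 2 in FA (-0.97). In 2iL that difference was of like size but missed the threshold (-1.08 ± 0.30, adjusted p = 0.0726). The replicate numbers pair the 2iL libraries between RAS states but not between ERF genotypes, and the replicate block spans both genotypes. In a fit of the compared groups alone this difference had an adjusted p of 0.0936 without and 0.0372 with the block (-1.12). DESeq2 called it (adjusted p = 0.011), and without the chromosome 8 libraries it was -1.30 with adjusted p = 0.00309.

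Epcam encodes a cell surface adhesion molecule of epithelia that pluripotent cells also carry. In 2iL it had 29.3, 19.6 and 19.4 TPM in the reference line and 29.5, 20.2 and 22.4 TPM in the RAS-deleted line. The ERF-knockout line had 18.9, 19.5 and 18.4 TPM and the double mutant 18.1, 15.9 and 18.98 TPM. In TPM these 2 lines lay at the low end, the double mutant below every ERF wild-type library. In CPM the groups overlapped, at 33.2, 31.6 and 34.6 in the double mutant and 30.2 to 50.9 in the ERF wild-type libraries. Leaving out the chromosome 8 libraries, the ERF-knockout line differed from the reference line in 2iL by a log2 value of 0.06. The double mutant then differed from the RAS-deleted line by 0.04. In FA the reference line had 101.0 and 118.4 TPM and the ERF-knockout line 108.0, 95.8 and 114.5 TPM. The RAS-deleted line had 25.7, 23.6 and 23.2 TPM in FA, inside the range of its 2iL libraries. The double mutant had 80.8, 78.7 and 85.3 TPM, far above the RAS-deleted line and below the lines with RAS present.

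Epcam rose in FA 4.20-fold in the reference line (2.07 ± 0.19, adjusted p = 4.21e-08), 5.17-fold in the ERF-knockout line (2.37 ± 0.18, adjusted p = 3.98e-09) and 3.29-fold in the double mutant (1.72 ± 0.18, adjusted p = 1.69e-07). In the RAS-deleted line the difference was -0.20 ± 0.18 (adjusted p = 0.396). In FA the RAS deletion lowered Epcam 4.97-fold with ERF wild type (-2.31 ± 0.19, adjusted p = 1.79e-08) and by -0.59 ± 0.17 with ERF knocked out (adjusted p = 0.0149, under the 2-fold minimum). The RAS effect thus differed between ERF genotypes by 1.72 ± 0.26 (adjusted p = 5.65e-05). With RAS deleted in FA the ERF knockout raised Epcam 3.41-fold (1.77 ± 0.18, adjusted p = 2.1e-07), while with RAS present it gave 0.05 ± 0.19 (adjusted p = 0.908). All Epcam calls held in each alternative tried. Without the chromosome 8 libraries the medium change of the reference line was 2.59 and the RAS effect in FA -2.64.

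The naive markers also separated the RAS-deleted line in FA. All 7 were called higher in the RAS-deleted than in the reference line in FA, and they summed to 1099 to 1763 CPM there against 190 to 277 CPM in the 3 other lines. All 7 were called lower again in the double mutant than in the RAS-deleted line. Of the 5 tested endoderm markers, all were called lower with the RAS deletion in FA with ERF wild type and 4 with ERF knocked out: they summed to 40.9 to 69.3 CPM in the reference line and 4.99 to 8.26 CPM in the RAS-deleted line, with Afp at 0 in the reference line. The ERF-knockout line had 44.4 to 52.3 CPM and the double mutant, in which Epcam was high, 8.72 to 13.04 CPM. The part of either in the values of the 10 genes was not tested. In bulk RNA, fewer cells of a type and less RNA per cell cannot be told apart.

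**Figure D4:**
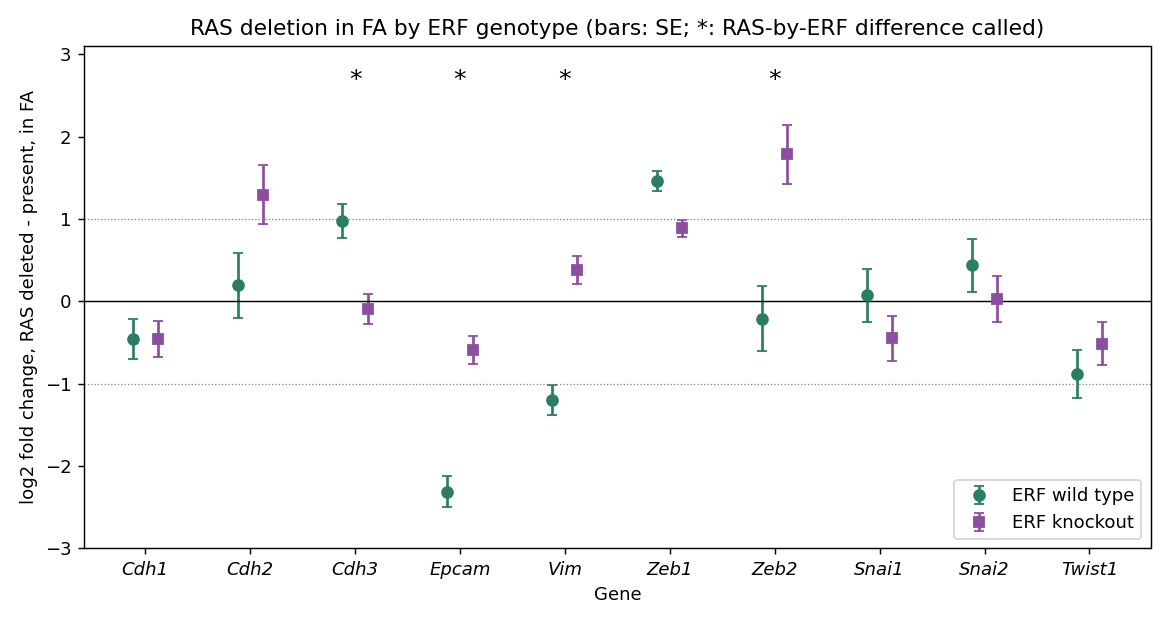
Log2 fold change of RAS deleted against present in FA for each gene, with ERF wild type (circles) and ERF knocked out (squares); bars are standard errors, dotted lines mark 2-fold and asterisks mark genes whose RAS effect differed between ERF genotypes by the call rule. Epcam moves from -2.31 to -0.59, Vim from -1.20 to 0.38 and Zeb2 from -0.21 to 1.78, while Cdh1 is at -0.46 in both.

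Vim encodes vimentin, the intermediate filament of mesenchymal cells, which cultured embryonic stem cells also express. In 2iL the reference line had 26.9, 43.2 and 39.7 TPM, the RAS-deleted line 27.3, 43.2 and 51.1 TPM, the ERF-knockout line 36.0, 31.9 and 35.2 TPM and the double mutant 29.5, 24.5 and 29.0 TPM. In FA the 2 reference libraries were far apart, at 96.3 and 42.2 TPM. The RAS-deleted line had 37.9, 31.5 and 33.8 TPM, the ERF-knockout line 41.5, 36.2 and 37.0 TPM and the double mutant 67.8, 56.2 and 49.7 TPM. The high reference library is the one numbered 1, which also had the higher endoderm sum of the pair (69.3 against 40.9 CPM).

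The RAS deletion lowered Vim 2.30-fold in FA with ERF wild type (-1.20 ± 0.19, adjusted p = 4.16e-05). This rested on the first reference library: without it the value was -0.63 (adjusted p = 0.00252), and without the 4 chromosome 8 libraries it was -0.69 (adjusted p = 1.48e-05), both under the 2-fold minimum. In the ERF-knockout background it was 0.38 ± 0.17 (adjusted p = 0.106). The 2 effects differed by 1.58 ± 0.25 (adjusted p = 0.000113), and by 1.06 (adjusted p = 1.15e-06) without the 4 libraries. Fibroblast or feeder markers moved in these comparisons too: of the 4 tested of 7, 3 were called lower with the RAS deletion in FA with ERF wild type, and 3 were called for a RAS effect that differed between ERF genotypes. In FA they summed to 4.97 to 5.93 CPM in the reference line, 2.23 to 3.63 CPM in the RAS-deleted line, 4.34 to 5.25 CPM in the ERF-knockout line and 7.21 to 8.48 CPM in the double mutant. Lum and Postn were at 0 in all of these libraries, and the part of the markers in the Vim values was not tested. The medium change of Vim was 0.98 ± 0.19 in the reference line (adjusted p = 0.000231, under 2-fold), 0.33 without the 4 libraries, and 0.84 ± 0.17 in the double mutant (adjusted p = 0.000389). It differed by RAS state with ERF wild type (-1.29 ± 0.26, adjusted p = 0.000936), a call lost without the 4 libraries (-0.84, adjusted p = 7.31e-05, under 2-fold). It differed between ERF genotypes where RAS was deleted (1.15 ± 0.24, adjusted p = 0.00163; 1.35 without the 4 libraries).

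Zeb1, a zinc-finger repressor of Cdh1, differed between media with a sign that depended on RAS. In 2iL it had 9.30, 12.5 and 13.8 TPM in the reference line, 11.4, 13.3 and 10.3 TPM in the RAS-deleted line, 10.4, 8.45 and 7.17 TPM in the ERF-knockout line and 7.37, 5.53 and 5.30 TPM in the double mutant. In FA the lines with RAS present were low, at 4.99 and 4.67 TPM in the reference line and 6.17, 5.08 and 5.79 TPM in the ERF-knockout line. The lines with RAS deleted were higher and did not overlap them, at 13.6, 18.7 and 18.3 TPM in the RAS-deleted line and 12.2, 11.1 and 12.0 TPM in the double mutant.

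In the reference line Zeb1 fell 2.24-fold in FA (-1.17 ± 0.12, adjusted p = 5.11e-08), and in the ERF-knockout line the value was -0.44 ± 0.11 (adjusted p = 0.00177, under 2-fold). In the RAS-deleted and double-mutant lines it was 0.46 ± 0.11 and 0.81 ± 0.11 (adjusted p = 0.00114 and 1.13e-06), also under 2-fold. The medium effect differed by RAS state with ERF wild type (1.62 ± 0.16, adjusted p = 9.49e-08) and with ERF knocked out (1.26 ± 0.15, adjusted p = 1.58e-05). In FA the RAS deletion raised Zeb1 2.75-fold with ERF wild type (1.46 ± 0.12, adjusted p = 2.58e-09), and the value with ERF knocked out was 0.88 ± 0.11 (adjusted p = 3.18e-06). The double mutant was 2.16-fold above the reference line in FA (1.11 ± 0.12, adjusted p = 2.06e-06). All Zeb1 calls held in each alternative tried, the fit without the chromosome 8 libraries included. In 2iL the ERF knockout gave -0.49 ± 0.11 with RAS present and -0.70 ± 0.11 with RAS deleted (adjusted p = 0.00134 and 2.43e-05), both under 2-fold.

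Zeb2, a paralog with the same kind of DNA-binding domains, was close to absent in 2iL, with 4 to 21 counts per library and at most 0.41 TPM. In FA it had 2.40 and 1.94 TPM in the reference line, 0.80, 2.22 and 3.00 TPM in the RAS-deleted line and 3.13, 0.85 and 2.26 TPM in the ERF-knockout line. The double mutant had 5.05, 5.85 and 5.47 TPM, above every other library. In counts this was 422 to 541 in the double mutant against 45 to 322 in the other FA libraries.

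Zeb2 rose in FA in all 4 lines, by 17.6-fold in the reference line (4.14 ± 0.52), 19.5-fold in the RAS-deleted line (4.29 ± 0.53), 6.74-fold in the ERF-knockout line (2.75 ± 0.46) and 57.1-fold in the double mutant (5.83 ± 0.53), with adjusted p of 6.3e-05 or less. The 2iL counts are small, so these folds are imprecise. With an effective length offset the log2 value was 3.47 in the reference line and 4.45 in the double mutant, and without RAS-deleted library 3 in FA it was 3.51 in that line. With ERF knocked out in FA the RAS deletion raised Zeb2 3.44-fold (1.78 ± 0.35, adjusted p = 0.00116), and with ERF wild type it gave -0.21 ± 0.39 (adjusted p = 0.706). The latter changed sign, to 0.29, without the 4 chromosome 8 libraries and was -0.99 without RAS-deleted library 3. It was called in the edgeR fit of the compared groups alone with the replicate block (-1.12, adjusted p = 0.0101), although replicate numbers do not pair these groups. The 2 effects differed by 2.00 ± 0.53 (adjusted p = 0.00744), a call lost with an effective length offset (1.52) and in a fit of the compared groups alone (1.96, adjusted p = 0.0725). Without the chromosome 8 libraries the difference was 1.49 (adjusted p = 0.00594). With RAS deleted in FA the ERF knockout raised Zeb2 2.89-fold (1.53 ± 0.35, adjusted p = 0.00145), lost in a fit of the compared groups alone (1.51, adjusted p = 0.0691). The 3 RAS-deleted libraries had 45, 134 and 322 counts, and the value was 1.12 without the first and 2.31 without the last of them; it was also 1.12 without the 4 chromosome 8 libraries. The double mutant was 2.50-fold above the reference line (1.32 ± 0.40, adjusted p = 0.0411), a call lost without any 1 of the 5 libraries involved. With ERF knocked out the medium effect was larger where RAS was deleted (3.08 ± 0.79, adjusted p = 0.0148), which was lost with the length offset (2.09, adjusted p = 0.1) and without either of 2 of the 2iL libraries.

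The 2iL values of Zeb2 with ERF knocked out depended on the fit. With ERF knocked out the counts were 12, 13 and 21 with RAS present and 7, 4 and 5 with RAS deleted, and the difference was -1.30 ± 0.72 (adjusted p = 0.432). The replicate numbers pair these samples. In a fit of the compared groups alone the value was -1.31 (adjusted p = 0.092), and with the replicate block added to that fit it was -1.28 (adjusted p = 0.0365). In the double mutant in FA, where Zeb2 and Cdh2 were highest, the neural markers summed to 123.3 to 125.5 CPM against 46.1 to 71.1 CPM in the other FA groups. Of 4 neural markers tested, 2 were called higher and 1 lower in the double mutant than in the ERF-knockout line in FA, and none was at 0 in every library of a group. Their part in the 2 genes' values was not tested.

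Snai1, Snai2 and Twist1, the other repressors known from epithelial to mesenchymal transition, were low. Snai1 ran from 0.58 to 2.23 TPM and 15 to 87 counts. In 2iL the reference line had 0.63, 0.58 and 0.84 TPM, the RAS-deleted line 1.01, 1.00 and 0.96 TPM, the ERF-knockout line 0.87, 1.21 and 1.85 TPM and the double mutant 1.41, 1.70 and 1.24 TPM. Of the 6 libraries with ERF knocked out, 5 exceeded all 6 with ERF wild type. With RAS present the ERF knockout raised Snai1 2.04-fold (1.03 ± 0.31, adjusted p = 0.0166), which was lost without reference library 2 (0.93) or ERF-knockout library 3 (0.66). With RAS deleted it was 0.83 ± 0.30 (adjusted p = 0.0338, under 2-fold). In FA Snai1 had 1.40 and 1.18 TPM in the reference line, 1.38, 0.85 and 2.23 TPM in the RAS-deleted line, 1.88, 2.12 and 2.03 TPM in the ERF-knockout line and 1.58, 1.93 and 1.56 TPM in the double mutant, and none of its differences within FA or between media was called (0.87 ± 0.34 between media in the reference line, adjusted p = 0.0385, under 2-fold).

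Snai2 stayed between 0.26 and 0.63 TPM, at 11 to 28 counts, and was called in 0 of the 12 comparisons by edgeR, with 0 unadjusted p-values under 0.05. At these counts only large changes could be seen. Twist1 ran from 0.94 to 3.11 TPM. In the reference line it had 2.198, 1.15 and 1.21 TPM in 2iL and 2.56 and 3.11 TPM in FA, with no overlap in TPM. In CPM the groups overlapped, with 3.71 in 2iL library 1 and 3.63 in FA library 1. The difference was 0.81 ± 0.29 (adjusted p = 0.0238, under 2-fold). Without the chromosome 8 libraries it was 1.50 (adjusted p = 0.000181), past 2-fold. The ERF-knockout line had 1.46, 1.80 and 1.36 TPM in 2iL and 2.45, 2.45 and 2.93 TPM in FA (0.75 ± 0.27, adjusted p = 0.0241). In FA the RAS-deleted line had 1.58, 1.96 and 1.59 TPM, below both reference libraries (-0.88 ± 0.29, adjusted p = 0.0173; -1.12 without the chromosome 8 libraries, adjusted p = 0.00238, past 2-fold). The medium effect on Twist1 differed by RAS state with ERF wild type by -0.77 (adjusted p = 0.182), and by -1.16 without those libraries (adjusted p = 0.0317), past 2-fold. The double mutant had 1.83, 2.30 and 2.14 TPM in FA, overlapping the RAS-deleted line and below the reference line.

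Of the genes around these 10, the epithelial list (37 genes of tight junctions, desmosomes, keratins and their regulators, 36 tested) went both ways. In FA against 2iL 10 were called higher and 3 lower in the reference line, 4 and 9 in the RAS-deleted line, 7 and 4 in the ERF-knockout line and 8 and 12 in the double mutant. Of all genes 13.2% were called higher and 10.8% lower in the reference line, 9.96% and 6.59% in the RAS-deleted line, 12.3% and 7.46% in the ERF-knockout line and 14.5% and 10.4% in the double mutant. The list median was 0.51 in the reference line and -0.52 in the RAS-deleted line, against 0.03 and 0.01 over all genes tested. In FA the RAS deletion lowered 16 and raised 1 of the 36 with ERF wild type (median -0.81) and lowered 8 and raised 1 with ERF knocked out (median -0.63), with all genes at a median of 0. Of all genes 8.33% were called lower and 8.93% higher in the first of these, and 4.06% and 2.81% in the second. The ERF knockout with RAS deleted in FA raised 12 and lowered 3 (median 0.35), where 8.13% of all genes were called higher and 8.48% lower.

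By the naming rule, Esrp1 (an epithelial splicing factor), Cldn6 (a tight junction claudin) and Krt8 (a keratin) stand for the rises and Elf3 (an ETS-family epithelial factor), Dsg2 (a desmosomal cadherin) and St14 (a membrane protease) for the falls. Esrp1 rose 26.4-fold in the reference line, from 1.35 ± 1.01 to 38.4 ± 0.50 CPM (SD, n = 3 and 2), and reached 5.14 ± 3.08 CPM in the RAS-deleted line and 11.7 ± 0.36 CPM in the double mutant (SD, n = 3). Cldn6 followed Epcam, with 19.1 CPM in the reference line in FA, 3.15 CPM in the RAS-deleted line, 16.6 CPM in the ERF-knockout line and 8.33 CPM in the double mutant. The RAS deletion lowered Cldn6 6.07-fold in FA with ERF wild type, and the effect differed by ERF genotype (1.60 ± 0.29, adjusted p = 0.000214). Elf3 went the other way: 12.7 CPM in the reference line in FA against 82.8 CPM in the RAS-deleted line and 9.005 CPM in the double mutant. Its ERF effect with RAS deleted in FA was a 9.14-fold fall (-3.19 ± 0.14, adjusted p = 1.8e-13). Dsg2, a cadherin of desmosomes, fell in FA in all 4 lines, 3.96-fold in the reference line and 8.22-fold in the double mutant.

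The mesenchymal list (33 genes, 30 tested) had calls in both directions between the media. In FA against 2iL 7 were called higher and 7 lower in the reference line, 6 and 5 in the RAS-deleted line, 7 and 3 in the ERF-knockout line and 8 and 6 in the double mutant, with medians of 0.02 to 0.24. Of all genes 24% were called in the reference line, 16.5% in the RAS-deleted line, 19.7% in the ERF-knockout line and 24.9% in the double mutant. The RAS deletion in FA raised 5 and lowered 9 with ERF wild type, where 17.3% of all genes were called. The ERF knockout in FA raised 4 and lowered 0 with RAS present (median 0.17, with 2.36% of all genes called) and raised 9 and lowered 2 with RAS deleted (median 0.32, with 16.6% called). In FA the double mutant had 4 called higher and 0 lower than the reference line (median 0.30, with 3.32% of all genes called). In 2iL the ERF knockout raised 6 and lowered 4 in either RAS state, with 9.72% of all genes called with RAS present and 13% with RAS deleted. Fn1, fibronectin, fell 4.28-fold in the reference line, from 2029 ± 69.9 to 474.1 ± 28.1 CPM (SD, n = 3 and 2), while the RAS-deleted line kept 1254 ± 183.4 CPM in FA. Loxl2, a collagen cross-linking oxidase, rose 9.19-fold in the reference line and was 46.7 CPM in the double mutant in FA. The proteases Mmp14 and Mmp2 rose 2.53-fold and 2.01-fold in the reference line. Beside Fn1, the falls named by the rule were Pdgfrb and Msn. In the reference line Pdgfrb went from 16.2 ± 0.69 to 4.90 ± 1.24 CPM and Msn from 129.3 ± 14.8 to 64.3 ± 8.44 CPM (SD, n = 3 and 2).

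The adherens junction list (17 genes, all tested) had 4 called higher and 1 lower in FA in the reference line, 5 of 17 where 24% of all genes were called. All 5 were below the level of 5 CPM that the naming rule asks for, and they are named after their values were seen. Cdh15, another cadherin, had 5, 0 and 1 counts in 2iL and 112 and 81 counts in FA. Cdh6 had 3 counts in each 2iL library and 31 and 9 in FA, Cdh5 0, 1 and 1 against 32 and 5, and the alpha-catenin Ctnna2 0, 0 and 0 against 33 and 15. Nectin4 fell from 3.60, 2.38 and 2.18 CPM to 0.93 and 1.42 CPM. The catenin genes Ctnnb1 and Ctnna1 moved little, at 0.01 ± 0.08 and -0.10 ± 0.06 on the log2 scale (adjusted p = 0.896 and 0.204).

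Over the 8 group means of log2(CPM + 1), and among 11166 expressed genes, the profiles most like that of Cdh1 were those of Polr2i, Cdipt (Pearson r = 0.981 for both), Ints10 (0.979), Eif3d and Mrps30 (0.968 for both). Ints10 lies on chromosome 8 like Cdh1, whose genes were raised in 4 of the 23 libraries. Those most like Cdh2 were Myef2 (0.994), Gprc5c (0.993), Hnrnpa2b1 (0.992), Dyrk1b and Chst12 (0.991 for both). With 8 points that share 1 medium contrast, many genes reach such values.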

How the data were processed

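Directional, rRNA-depleted libraries of total RNA were read as 75-base pairs, per the labels. The submitters' processing notes name bcl2fastq 2.20.0, fastp 0.20.0, Salmon and the build mm10. The authors deposited expected counts (Salmon estimates), TPM and effective lengths per gene for each library, and a table of whole-number counts that equals the rounded estimates (0 cells differ). A TPM is the authors' value per length; CPM values here are counts over TMM-scaled library totals. The test was edgeR 4.0.16 under R 4.3.3 (filterByExpr, TMM, robust quasi-likelihood fit of all 23 libraries, a coefficient per group), with Benjamini-Hochberg adjustment over 20372 genes; the SE is the absolute log2 fold change over the square root of F. The procedure was tested on simulated data. There were 12 comparisons of 1 factor, 1 of the double mutant and 6 interactions. The members, lists and tests were chosen with earlier results of these data known. The naming rule took up to 3 list genes per direction by fold in the reference line's medium comparison, with at least 5 CPM, and the 5 genes most correlated with Cdh1 and with Cdh2. Replicate numbers from the labels were checked for pairing by the correlation of deviations from group means: every pair exceeded 0.1 for the medium comparison in the RAS-deleted (0.106 to 0.313), ERF-knockout (0.146 to 0.268) and double-mutant lines (0.103 to 0.168) and for the RAS comparison in 2iL (0.175 to 0.380 with ERF wild type, 0.186 to 0.345 with ERF knockout). Alternatives were DESeq2 1.42.0, DESeq2 size factors in edgeR, library totals alone, the most abundant gene row left out, an effective length offset, no filter, no fold minimum, only the compared groups, a replicate block, and each library left out. Leaving out the 4 ERF wild-type libraries numbered 1 was added after seeing the data. Gene positions come from GENCODE M21 and promoters from RefSeq, both on GRCm38.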

Additional observations from a re-analysis of the deposited data

Results flagged for a closer look

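Each result here is a difference between 2 effects that passed the test of that difference. The FA response with ERF wild type depended on RAS for Epcam (log2 difference -2.27), Vim (-1.29) and Zeb1 (1.62), where 11.9% of all genes were called. With ERF knocked out it depended on RAS for Zeb1 (1.26) and Zeb2 (3.08), against 4.59%. With RAS deleted it depended on ERF for Cdh2 (1.70), Epcam (1.92) and Vim (1.15), against 11.3%. In FA the RAS effect depended on ERF for Cdh3 (-1.07), Epcam (1.72), Vim (1.58) and Zeb2 (2.00), against 13.7%. These differences share groups and are not separate evidence. With RAS present edgeR called no gene of the 10 for the dependence of the FA response on ERF (4.27% of all genes). There 2 had an unadjusted p under 0.05, Vim and Zeb1, and DESeq2 called 0. Zeb2 was called there in 2 other edgeR fits and Vim in 1, with the values given above. The Epcam and Zeb1 differences listed and the Vim differences by ERF were called in every alternative tried. The others were each lost in at least 1. The Cdh2 difference was called in 16 of 22 alternatives, that of Zeb2 by RAS with ERF knocked out in 19 of 22, that of Zeb2 in the RAS effect in 18 of 21 and that of Cdh3 in 20 of 21. The Vim difference by RAS was called in 19 of 21, and it was -0.84 without the ERF wild-type libraries numbered 1.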

How the results depend on the processing

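Of 41 called results, 26 were called in every alternative, 15 were lost in at least 1 and 0 reversed. Of 149 uncalled results, 48 changed sign in at least 1 alternative and 21 became called in at least 1, apart from dropping the fold minimum. Without a fold minimum the calls went from 17 to 26 for medium, from 6 to 10 for RAS, from 4 to 12 for ERF, from 2 to 3 for the double mutant and from 12 to 14 for the interactions. Leaving out each library in turn gave 16 to 18 calls for medium, 5 to 7 for RAS, 3 to 6 for ERF, 1 to 2 for the double mutant and 10 to 14 for the interactions. The replicate block was fitted to the compared groups alone. It gave 1 ERF call, where the compared groups alone gave 4, although replicate numbers do not pair the ERF groups. The length offset gave 1 double-mutant call. Against the fit of all libraries the block changed 10 calls. Of those that change 1 factor, only Zeb2 for RAS in 2iL with ERF knocked out compares samples that pair. Cdh3 for RAS-by-ERF in 2iL and Cdh2 for medium-by-ERF without RAS set ERF genotypes against each other, which the numbers do not pair. Values for these and for Cdh2 in medium-by-RAS without ERF are given above. Over all genes, RAS in 2iL with ERF knocked out had 43 calls, 75 in the compared groups alone and 207 with the block added. Counts over all genes moved by over 1.5 times mainly where they are small: 43 became 17 to 266 for RAS in 2iL with ERF knocked out, 244 became 70 to 1161 with ERF wild type, 480 became 124 to 1992 for ERF in FA with RAS present, 77 became 26 to 457 for the RAS-by-ERF interaction in 2iL, and 870 became 577 to 1902 for the medium-by-ERF interaction with RAS present. In the remaining comparisons dropping the fold minimum moved the count, for example from 4891 to 10075 for medium in the reference line. Counts of Zeb2 in 2iL, Snai1 and Snai2 are the least precise.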
